A study of Mus musculus with 2 samples.

Results

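The genes that activate, oxidize, hydrolyze, elongate, desaturate and bind fatty acids were examined in ovaries of prenatally androgenized (PNA) and control mice. Members were taken by gene symbol from the deposited annotation: *Acad*, *Acot*, *Acox*, *Acsl*, *Acsm*, *Cpt1*, *Elovl*, *Fads* and *Fabp* genes with their subtype letters or digits, and *Cpt2*, on rows that name a single gene. This gave 58 genes of 20752, measured by 112 of 45037 probe sets, the groups of short oligonucleotides with which an Affymetrix GeneChip reads a transcript. PNA mice were female ICR offspring of dams given 350 µg of dihydrotestosterone (DHT, an androgen that cannot be aromatized to estrogen) in 70 µl of sesame oil per injection on gestation days 16 to 18, and dams of control mice were given the oil alone. Both groups were otherwise the same ICR strain and sex, and the age at which these ovaries were taken for arrays was not found in the labels or methods. Each group contained 5 ovaries and was hybridized to 1 array, so no SD, test or p-value can be given, and a difference between the groups cannot be told apart from one between these 2 RNA samples. Neither source says how the RNA of the 5 ovaries was combined.

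Signals are linear intensities as deposited, with a median of 48.7 for control and 49.5 for PNA. Fold changes are PNA over control. Where several probe sets read a gene, the one of highest mean log2 signal stands for it (the chosen probe set), and the gene was called higher or lower at 1.5-fold or more (0.585 on the log2 scale), the criterion of the study. The 40th percentile of each array, 30.4 for control and 30.6 for PNA, was taken as a floor. A gene over it on either array is called measurable, and one under it on both is given no direction. Signals of different probe sets are on different scales, so levels are compared only between arrays. A summed signal of several genes follows its brightest probe sets and includes genes below the floor. The arrays hold whole ovaries, in which fewer cells of a type and less RNA per cell cannot be told apart. Markers of granulosa cells (10 of 10), theca and interstitial cells (5 of 5), corpora lutea (7 of 7) and oocytes (9 of 9) were measurable, and none of 5 oviduct markers was.

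A fatty acid enters metabolism when an acyl-CoA synthetase (ACSL, ACSM) links it to coenzyme A, and an acyl-CoA thioesterase (ACOT) reverses that step. Carnitine palmitoyltransferases (CPT) carry long chains into mitochondria, where acyl-CoA dehydrogenases (ACAD) begin each round of beta-oxidation. Acyl-CoA oxidases (ACOX) do so in peroxisomes. In the endoplasmic reticulum, elongases (ELOVL) lengthen chains and desaturases (FADS) place double bonds, while fatty acid-binding proteins (FABP) carry the chains through the cytosol. In the ovary, fatty acids fuel the maturing oocyte and are stored as cholesterol esters and triglycerides in steroid-producing cells.

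Of the 58 members, 42 lay above the floor on both arrays, 2 on a single array and 14 on neither. Of these 44 measurable genes, 2 were at least 1.5-fold higher in PNA ovaries (4.55%), *Elovl2* and *Fabp3*, and 1 was at least 1.5-fold lower (2.27%), *Elovl7*. Of all 14116 measurable genes, 2.49% were higher and 2.16% were lower by this criterion, so the members' share of lower genes was close to that of all genes, and their share of higher genes rests on 2 genes. Among the 42 above the floor on both arrays, 2 were higher and 0 lower, against 2.24% and 1.78% of all such genes. The median log2 ratio of the 44 was 0.01, against -0.01 for all genes, and the median over all 58 members was 0.00. The median absolute log2 ratio was 0.16 for the members and 0.12 for all genes, and 31 of the 44 members differed by less than 1.2-fold between the arrays. The members past 1.5-fold were elongases and a binding protein. No member of the *Acad*, *Acot*, *Acox*, *Acsl*, *Acsm*, *Cpt* or *Fads* families reached 1.5-fold on its chosen probe set. The log2 ratios of *Fads2* (0.50) and *Fads6* (-0.50) were close in size to that of *Acot1* (0.49).

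**Figure D1:**
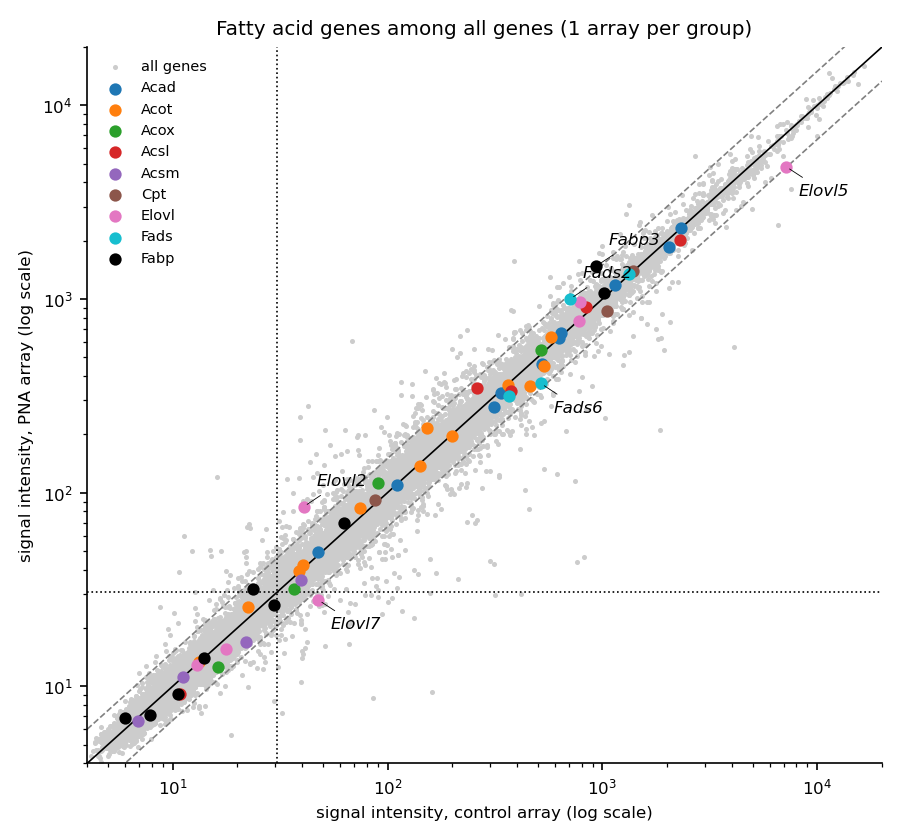
Signal intensity of each gene on the control array (x axis, log scale) and on the PNA array (y axis, log scale), with 1 point per gene, members coloured by family and all genes in grey. The solid line marks equal signal, the dashed lines 1.5-fold and the dotted lines the floor of each array. *Elovl2* and *Fabp3* lie above the upper dashed line, *Elovl7* lies below the lower one and below the PNA floor, and *Elovl5* lies just inside the lower one.

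*Elovl2*, which encodes the elongase that lengthens polyunsaturated fatty acids to very long chains, had a signal of 40.7 (control) and 84.6 (PNA) on its single probe set (chr13:41182380-41220162 in the deposited annotation). The PNA signal was 2.08-fold that of control (log2 ratio 1.05), the largest change among the 44 members, from a control signal not far above the floor. An offset of 50 on each signal, which weights dim signals less, brought its log2 ratio to 0.57, under 1.5-fold.
*Elovl5*, the elongase of polyunsaturated chains that acts before *Elovl2*, went the other way. Its signal was 7157 (control) and 4820.0 (PNA) on the probe set with the highest mean signal (log2 ratio -0.57) and 6947 (control) and 4499 (PNA) on the other (chr9:77917371-77984517, log2 ratio -0.63). Both probe sets were lower in PNA ovaries, by 1.48-fold and 1.54-fold, so that the second passed the criterion and the first, which carries the gene in the counts, did not. Both lie within the same gene, and the first can also match other transcripts, as its suffix _x_at marks.
*Elovl7*, an elongase of long saturated chains, was lower on both of its probe sets that reached the floor in control ovaries. The signals were 47.7 (control) and 27.9 (PNA) (log2 ratio -0.77) and 39.9 (control) and 24.2 (PNA) (log2 ratio -0.72). Both PNA values lay below the floor, against which *Elovl7* was at least 1.55-fold and at least 1.30-fold lower, respectively. The other 4 probe sets of *Elovl7* lay below the floor on both arrays. With the mean of all its probe sets or the offset of 50, *Elovl7* was under 1.5-fold.
*Elovl6*, which elongates saturated chains formed by fatty acid synthase, gave signals of 788 (control) and 969 (PNA) (log2 ratio 0.30), but its other probe sets went from 429 to 404 (log2 ratio -0.09) and from 43.5 to 45.5 (log2 ratio 0.06), so its probe sets lay on both sides of 0. *Elovl1*, which makes very long saturated and monounsaturated chains, was near equal on both arrays (774 to 773, log2 ratio 0.00), with log2 ratios of 0.06 and 0.02 on its other probe sets above the floor. *Elovl3* and *Elovl4* lay below the floor on both arrays. The median log2 ratio of the 4 elongases above the floor on both arrays was 0.15, and with *Elovl7*, whose PNA signal is not above the floor, it was 0.00.

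The promoters of *Elovl2*, *Elovl5*, *Elovl7*, *Fads2*, *Fads6* and *Fabp3* are shown because these genes carry the main differences among the elongases, desaturases and binding proteins. Each run is the 250 bases before a RefSeq transcript start of the gene on GRCm38.p6, 5′ to 3′ on the strand of the gene. In RefSeq the *Elovl7* gene begins at chr13:108214326 and the *Fads6* gene at chr11:115297731. Part of each of their runs therefore lies within the gene. Capitals mark the GC box (GGGCGG), the CCAAT box and the nuclear receptor half-site (AGGTCA) on either strand. On the other strand the GC box reads CCGCCC, the CCAAT box reads ATTGG and the half-site reads TGACCT. The *Elovl2* sequence (first of 2 RefSeq starts) is chr13:41220404-41220653, minus strand, that of *Elovl5* is chr9:77917115-77917364, plus strand, that of *Elovl7* is chr13:108214154-108214403, plus strand, that of *Fads2* is chr19:10101504-10101753, minus strand, that of *Fads6* is chr11:115297563-115297812, minus strand, and that of *Fabp3* is chr4:130308488-130308737, plus strand.
*Elovl2*: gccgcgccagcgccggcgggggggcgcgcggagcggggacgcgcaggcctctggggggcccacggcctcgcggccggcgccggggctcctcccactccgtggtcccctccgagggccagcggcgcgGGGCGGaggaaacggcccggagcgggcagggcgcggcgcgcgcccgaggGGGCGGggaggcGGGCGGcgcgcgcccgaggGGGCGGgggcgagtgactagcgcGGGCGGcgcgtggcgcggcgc
*Elovl5*: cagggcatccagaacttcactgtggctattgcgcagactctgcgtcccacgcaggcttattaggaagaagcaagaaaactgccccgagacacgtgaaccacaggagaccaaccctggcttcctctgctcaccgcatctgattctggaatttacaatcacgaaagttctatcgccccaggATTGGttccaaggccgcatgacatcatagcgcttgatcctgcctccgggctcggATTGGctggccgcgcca
*Elovl7*: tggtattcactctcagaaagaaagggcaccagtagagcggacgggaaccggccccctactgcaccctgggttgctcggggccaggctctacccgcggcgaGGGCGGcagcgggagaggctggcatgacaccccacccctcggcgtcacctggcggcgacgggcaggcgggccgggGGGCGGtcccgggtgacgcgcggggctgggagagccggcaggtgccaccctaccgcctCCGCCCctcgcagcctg
*Fads2*: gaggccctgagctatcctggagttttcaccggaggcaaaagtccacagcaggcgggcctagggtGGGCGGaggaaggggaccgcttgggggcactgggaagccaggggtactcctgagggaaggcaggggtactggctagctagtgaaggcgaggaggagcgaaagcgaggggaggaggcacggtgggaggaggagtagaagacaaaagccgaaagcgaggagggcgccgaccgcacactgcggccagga
*Fads6*: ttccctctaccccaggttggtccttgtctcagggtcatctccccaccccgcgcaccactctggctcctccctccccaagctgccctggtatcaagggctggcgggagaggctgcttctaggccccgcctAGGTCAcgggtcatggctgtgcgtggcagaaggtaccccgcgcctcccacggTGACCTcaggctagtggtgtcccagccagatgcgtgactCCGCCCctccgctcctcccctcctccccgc
*Fabp3*: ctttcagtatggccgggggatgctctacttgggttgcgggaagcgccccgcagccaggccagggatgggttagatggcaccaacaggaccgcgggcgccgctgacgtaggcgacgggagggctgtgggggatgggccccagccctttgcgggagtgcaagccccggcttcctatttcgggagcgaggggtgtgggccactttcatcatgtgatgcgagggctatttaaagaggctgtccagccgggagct
The *Elovl2* sequence held 5 GC boxes and was 87.2% G and C, against a median of 52.4% over all 32851 RefSeq promoters. The run before its second RefSeq start (chr13:41220163-41220412), not shown, held none of the letters searched. The *Elovl5* sequence held 2 CCAAT boxes, which begin 71 and 17 bases before the start, and no GC box. *Elovl7* held 3 GC boxes and *Fads2* held 1. *Fads6* held 1 GC box and 2 half-sites, which begin 121 and 69 bases before the transcript start used and lie within the gene. *Fabp3* held none of the letters searched. A GC box was found in 32.7% and a CCAAT box in 33.8% of all promoters, and each was found in 29 of the 58 promoters of the 48 members that had one in the table. Some of the 58 overlap, as the runs of *Acot3* and those of *Acot5* do, and a match there is counted for each start. The half-site, on which many lipid-sensing receptors bind, was found in 15 of these 58 and in 14.0% of all promoters, and among the 6 shown in that of *Fads6*. The direct repeat of that half-site with a 1-base spacer, bound by PPAR and RXR (0.0335% of all promoters), the SF-1 and LRH-1 motif (TCAAGGTCA, 0.387%, which contains the half-site) and the sterol regulatory element of SREBP (0.0731%) were searched on both strands and found in 0, 1 and 0 member promoters. The match was in *Acsl6*, which lay below the floor on both arrays. The half-site, the CCAAT box and the GC box were added after the values and the other motifs had been seen, and a match describes these letters only.

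Among the desaturases, *Fads2*, which performs the first desaturation of polyunsaturated fatty acid synthesis, had log2 ratios over 0 on every probe set. Its 3 probe sets had signals of 708 (control) and 999.9 (PNA) (log2 ratio 0.50), of 676 (control) and 1003 (PNA) (log2 ratio 0.57) and of 119 (control) and 162 (PNA) (log2 ratio 0.45). None of the 3 reached 1.5-fold. *Fads1*, the desaturase that acts after the elongation by *Elovl5*, had a signal of 1329.6 (control) and 1352 (PNA) (log2 ratio 0.02), and a second probe set went from 73.8 to 109.5 (log2 ratio 0.57).
*Fads3*, a family member next to *Fads1* and *Fads2* on chromosome 19, had log2 ratios under 0 on each of its 3 probe sets, with 366 (control) and 316 (PNA) on the first. The log2 ratios of *Fads3* were -0.21, -0.23 and -0.24. The 3 neighbours therefore gave log2 ratios of 0.02, 0.50 and -0.21 on their chosen probe sets.
*Fads6*, a desaturase-like gene on chromosome 11, was lower on both of its probe sets. The signals were 517 (control) and 366 (PNA) (log2 ratio -0.50, 1.41-fold) and 448 (control) and 243 (PNA) (log2 ratio -0.88, 1.84-fold), so that the second alone passed 1.5-fold. The annotation gives that second probe set no alignment, and the first carries the gene in the counts.
Along the route that makes long polyunsaturated fatty acids from dietary ones, the chosen probe sets thus read 0.50 for *Fads2*, -0.57 for *Elovl5*, 0.02 for *Fads1* and 1.05 for *Elovl2*. The sign of the log2 ratio differed between the steps, and *Elovl2* alone passed 1.5-fold.

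**Figure D2:**
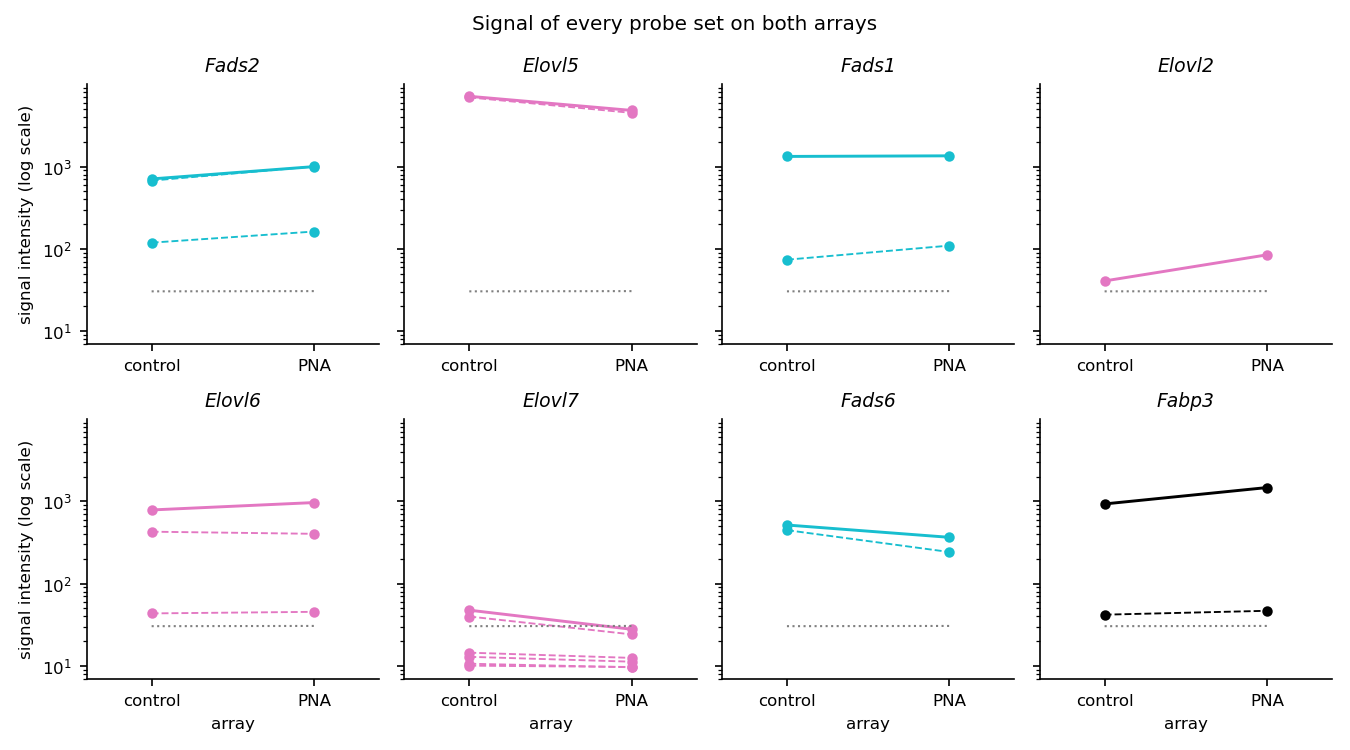
Signal intensity (y axis, log scale) on the control and the PNA array (x axis) for every probe set of 8 members, where the solid line is the probe set with the highest mean signal, dashed lines are the others and the dotted line is the floor. All *Fads2* lines climb and both *Elovl5* and both *Fads6* lines descend, while the *Elovl6* lines lie on both sides of no change and the PNA values of *Elovl7* fall under the floor.

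*Fabp3*, the fatty acid-binding protein known from heart and skeletal muscle, had a signal of 933 (control) and 1475 (PNA) (chr4:130308643-130315459), 1.58-fold higher (log2 ratio 0.66). The annotation aligns this probe set to a second place in the genome as well. A dimmer probe set of *Fabp3* gave 42.0 (control) and 46.8 (PNA) (log2 ratio 0.16), so both were higher in PNA ovaries and 1 passed 1.5-fold. The mean over both probe sets was 0.41, under 1.5-fold. Among muscle markers, none of 4 reached 1.5-fold, with *Ckm* reading 46.6 (control) and 50.7 (PNA), *Acta1* 37.3 (control) and 31.2 (PNA), *Actn3* 38.3 (control) and 28.7 (PNA), and *Myh4* lay below the floor on both arrays. Their summed signal was 132 (control) and 121 (PNA).
*Fabp4*, which is abundant in adipocytes, macrophages and capillary endothelium, had signals of 62.7 (control) and 69.4 (PNA) (log2 ratio 0.15) and of 35.7 (control) and 38.2 (PNA) (log2 ratio 0.10), with 2 further probe sets below the floor. Of 6 adipocyte markers measured, *Adipoq*, *Cidec*, *Cfd*, *Lep* and *Pck1* lay below the floor on both arrays and *Retn* read 45.7 (control) and 44.6 (PNA), with a summed signal of 110.1 (control) and 109.9 (PNA). All 7 endothelial markers lay above the floor, with a median log2 ratio of -0.20 and a summed signal of 1648 (control) and 1532 (PNA). All 6 macrophage markers did too, with a median of 0.22 and a summed signal of 3720.1 (control) and 4205 (PNA), and *Cd14* was higher (109 to 173, log2 ratio 0.68). The part of these cells in the signal of *Fabp4* was not tested.
*Fabp5*, found in epithelial cells and macrophages, was nearly equal at 1014 (control) and 1068 (PNA) (log2 ratio 0.07), and a row that names both *Fabp5* and the predicted gene Gm3601 gave a log2 ratio of 0.02. *Fabp7*, known from glia, lay below the floor in control ovaries (23.6) and just above it in PNA ovaries (31.8), at least 1.05-fold higher. The glial marker *Gfap* lay below the floor on both arrays, and of the other 3, *S100b* was lower (248 to 76.6, log2 ratio -1.69), with a summed signal of the 4 of 1032 (control) and 809 (PNA). *Fabp1* of liver, *Fabp2* and *Fabp6* of intestine, *Fabp9* of testis and *Fabp12* lay below the floor on both arrays. The 3 binding proteins above the floor on both arrays had a median log2 ratio of 0.15. *Fabp7* passed the floor through its PNA signal alone, and the median was 0.29 with its measured ratio included and 0.07 over all 9.

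**Figure D3:**
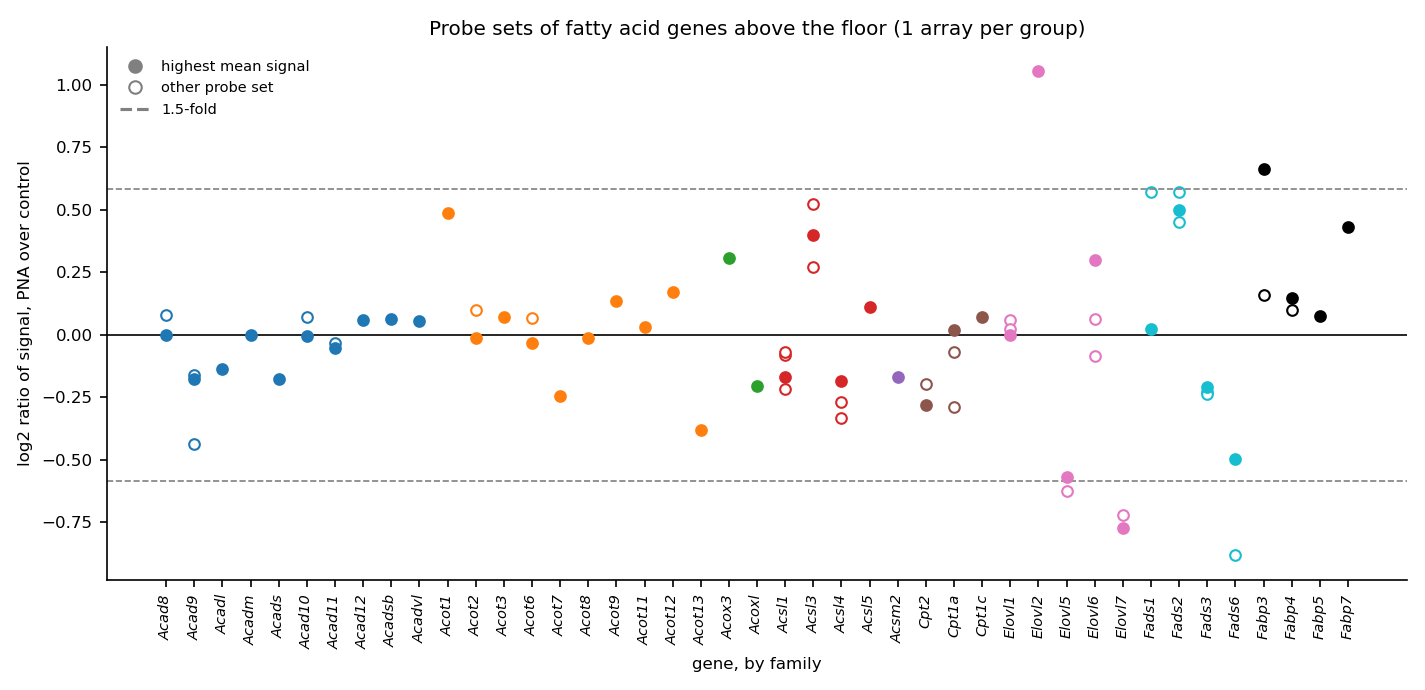
Log2 ratio of signal, PNA over control (y axis), for 74 measurable probe sets of 43 members, by gene and family (x axis). Filled points are the probe set with the highest mean signal, open points the others, and dashed lines mark 1.5-fold. The *Acad*, *Acot*, *Acox*, *Acsl*, *Acsm* and *Cpt* points all stay between the dashed lines, and the points beyond them belong to *Elovl2*, *Elovl5*, *Elovl7*, *Fads6* and *Fabp3*.

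No long-chain acyl-CoA synthetase reached 1.5-fold. *Acsl3*, which resides on the endoplasmic reticulum and lipid droplets, had log2 ratios over 0 on its 3 probe sets, at 262 (control) and 346 (PNA) on the first, with log2 ratios of 0.40, 0.52 and 0.27. *Acsl4*, which prefers arachidonic acid and is abundant in steroid-producing tissue, had log2 ratios under 0 on its 3, at 2306 (control) and 2026 (PNA) on the first, with log2 ratios of -0.19, -0.27 and -0.33. Neither gene reached 1.5-fold on any probe set.
*Acsl1*, the main synthetase of fat and muscle, read 375 (control) and 333 (PNA) (log2 ratio -0.17), and its 3 other probe sets above the floor had log2 ratios of -0.08, -0.07 and -0.22. *Acsl5*, which is abundant in intestine, read 838 (control) and 905 (PNA) (log2 ratio 0.11). *Acsl6*, known from brain, lay below the floor on both arrays. Of the medium-chain synthetases of mitochondria, *Acsm2* was near the floor at 39.7 (control) and 35.3 (PNA) (log2 ratio -0.17), and *Acsm1*, *Acsm3* and *Acsm5* lay below it on both arrays.

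*Cpt1a*, the outer mitochondrial enzyme that sets the rate of long-chain entry, read 1382 (control) and 1401 (PNA) (log2 ratio 0.02), and its other probe sets gave log2 ratios of -0.29 and -0.07. *Cpt2*, which restores acyl-CoA inside mitochondria, read 1050.4 (control) and 864 (PNA) (log2 ratio -0.28) and, on a dim probe set, 40.2 (control) and 35.0 (PNA) (log2 ratio -0.20). *Cpt1c*, the neuronal form, read 87.2 (control) and 91.7 (PNA) (log2 ratio 0.07). *Cpt1b*, the muscle form, shares its row with 2 other genes, and that row gave the same signal of 20.0 on both arrays, below the floor.

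All 10 acyl-CoA dehydrogenases lay above the floor on both arrays, and all 10 differed by less than 1.2-fold. The enzymes that start beta-oxidation by chain length were close to equal. *Acadm*, for medium chains, read 2329 (control) and 2327 (PNA) (log2 ratio 0.00), and *Acadvl*, for very long chains, read 1139 (control) and 1185 (PNA) (log2 ratio 0.06). *Acadl*, for long chains, read 2049 (control) and 1861 (PNA) (log2 ratio -0.14), and *Acads*, for short chains, read 523 (control) and 463 (PNA) (log2 ratio -0.18).
*Acad9*, whose protein also helps to assemble respiratory complex I, read 314 (control) and 278 (PNA) (log2 ratio -0.18). The other *Acad9* probe sets gave a log2 ratio of -0.16 and, against a PNA signal below the floor, a bound of at least 1.13-fold lower. *Acad8*, which acts in valine breakdown, gave the same signal on both arrays, 629.95, and a log2 ratio of 0.08 on its other probe set. *Acadsb*, which acts in isoleucine breakdown, read 640.4 (control) and 669 (PNA) (log2 ratio 0.06). *Acad10*, *Acad11* and *Acad12* gave log2 ratios of -0.01, -0.05 and 0.06. A further *Acad10* probe set gave 0.07 and a further *Acad11* probe set gave -0.03. The family median was 0.00.

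In peroxisomes, *Acox3*, an oxidase of branched chains, went from 90.7 to 112 (log2 ratio 0.31), and *Acoxl*, a related gene, from 36.7 to 31.9 (log2 ratio -0.21). *Acox2*, which acts in bile acid synthesis, lay below the floor on both arrays. No gene of this family reached 1.5-fold.

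Of 12 thioesterases, 10 lay above the floor on both arrays and none reached 1.5-fold. *Acot1*, the cytosolic form, had the largest log2 ratio of the family (0.49) and read 153 (control) and 215 (PNA). A row that names both *Acot1* and *Acot2* went from 217 to 308 (log2 ratio 0.50). *Acot2*, the mitochondrial form, read 362 (control) and 359 (PNA) on its chosen probe set (log2 ratio -0.01) and 139 (control) and 148 (PNA) on the other (log2 ratio 0.10). The deposited alignment of that chosen probe set, chr12:84017746-84018332, begins 72 bases past the end of the alignment of *Acot1* (chr12:84009491-84017674), while the other *Acot2* probe set aligns to chr12:83987711-83993116. By the RefSeq table the chosen *Acot2* probe set lies 23869 bases from the *Acot2* gene, while the other one overlaps that gene. The chosen one still carries *Acot2* in the counts and in the list of mitochondrial members. *Acot1* and *Acot2* are near-identical copies, so their values are uncertain as to which gene they measure.
*Acot13*, a mitochondria-associated thioesterase, read 461 (control) and 354 (PNA) (log2 ratio -0.38), and *Acot7*, known from brain, read 533 (control) and 449 (PNA) (log2 ratio -0.25). *Acot9*, a mitochondrial form, read 577 (control) and 633 (PNA) (log2 ratio 0.13), and a row that names it together with *Acot10* gave a log2 ratio of 0.13. *Acot12*, which hydrolyzes acetyl-CoA, went from 74.5 to 83.7 (log2 ratio 0.17).
The peroxisomal forms were close to equal on the arrays. *Acot8* read 199 (control) and 197 (PNA) (log2 ratio -0.01), *Acot6* 141 (control) and 138 (PNA) (log2 ratio -0.03, with 0.07 on its other probe set), and *Acot3*, near the floor, 40.5 (control) and 42.5 (PNA) (log2 ratio 0.07). *Acot11*, known from brown fat, read 38.7 (control) and 39.5 (PNA) (log2 ratio 0.03). *Acot4* and *Acot5* lay below the floor on both arrays. In lists by compartment, the 16 mitochondrial members above the floor had a median log2 ratio of -0.01, and the 5 peroxisomal ones 0.07. The 8 listed elongases and desaturases of the endoplasmic reticulum had 0.01, with *Elovl7* above the floor in control ovaries alone. *Acoxl* (log2 ratio -0.21) and *Fads6* (log2 ratio -0.50) were on none of these lists. Within the lists, the lowest and highest log2 ratios were -0.38 and 0.13 in mitochondria and -0.03 and 0.31 in peroxisomes. In the endoplasmic reticulum they were -0.77 (*Elovl7*) and 1.05.

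With 1 array per group, probe sets of the same gene give the only spread that can be read, and they share the RNA. Of the 22 members with several probe sets above the floor, 14 had all of them on the same side of 0, and 8 did not, among them *Acad8*, *Acad10*, *Acot2*, *Acot6*, *Cpt1a*, *Elovl1* and *Elovl6*. *Elovl7* alone passed 1.5-fold on each such probe set by its measured signals (on 1 of 2 when set against the floor), and *Elovl5*, *Fads6* and *Fabp3* did on some. The log2 ratios of the 2 brightest probe sets of a member differed by a median of 0.08 and by at most 0.54, in *Fads1*, against a median of 0.10 over 6260 genes. By probe set, 2 of the 77 above the floor were at least 1.5-fold higher (2.6%) and 4 were lower (5.19%), against 3.04% and 2.21% of all 27721 probe sets above the floor.

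Other genes of the same pathways were read from lists. For comparison, 2.49% of all 14116 measurable genes were higher and 2.16% were lower. Of 30 further genes of beta-oxidation above the floor, 1 was lower and none was higher. This was *Abcd2*, a peroxisomal transporter of very long and polyunsaturated chains, which went from 229 to 127 (log2 ratio -0.86), with -0.77 on the other probe set above the floor on both arrays. The median of this list was -0.02. Of 13 further genes of uptake and activation and of 19 further genes of synthesis and desaturation, none reached 1.5-fold, with medians of -0.04 and -0.08.
Among 16 regulators above the floor, *Lpin1*, a phosphatidate phosphatase that also acts with PPAR-alpha, was higher, at 131 (control) and 219 (PNA) (log2 ratio 0.74) and 123 (control) and 194 (PNA) (log2 ratio 0.65). *Ppara*, the fatty acid receptor that drives oxidation genes in liver, read 79.2 (control) and 114 (PNA) (log2 ratio 0.53), but 0.13 and -0.10 on its other probe sets. *Ppargc1a*, a coactivator of mitochondrial genes, lay below the floor in PNA ovaries (34.4 and 24.4), at least 1.12-fold lower. *Pparg*, abundant in granulosa cells, gave a log2 ratio of -0.34, *Ppard* 0.22, *Srebf1* -0.16 and *Mlxipl* -0.18. *Srebf2*, *Nr1h2*, *Nr1h3*, *Rxra*, *Rxrb*, *Esrra*, *Nrip1*, *Ppargc1b* and *Hnf4a* lay between -0.09 and 0.10 on the probe set of highest mean signal. The other *Nrip1* probe sets ran from -0.11 to 0.55, the highest with signals of 281 (control) and 411 (PNA), and a second *Esrra* probe set gave 0.22. *Rxrg* lay below the floor on both arrays.
Of 24 genes known as PPAR-alpha targets in mouse above the floor, *Fabp3* alone was higher and none was lower, with a median of -0.02. This list holds members, among them *Acadm* and *Cpt1a*. Of 17 genes known as targets of SREBP-1 or LXR, 1 was higher (5.88%) and 2 were lower (11.8%), with a median of 0.08. This list also holds members already described, namely *Elovl5*, *Elovl6*, *Elovl7*, *Fads1* and *Fads2*. *Pnpla3*, a lipase of lipid droplets, went from 36.4 to 57.6 (log2 ratio 0.66). *Thrsp*, which promotes fatty acid synthesis, went from 97.2 to 45.5 (log2 ratio -1.10), with -0.92 and -0.22 on its other probe sets. The other lower gene was *Elovl7*, above the floor in control ovaries alone.

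**Figure D4:**
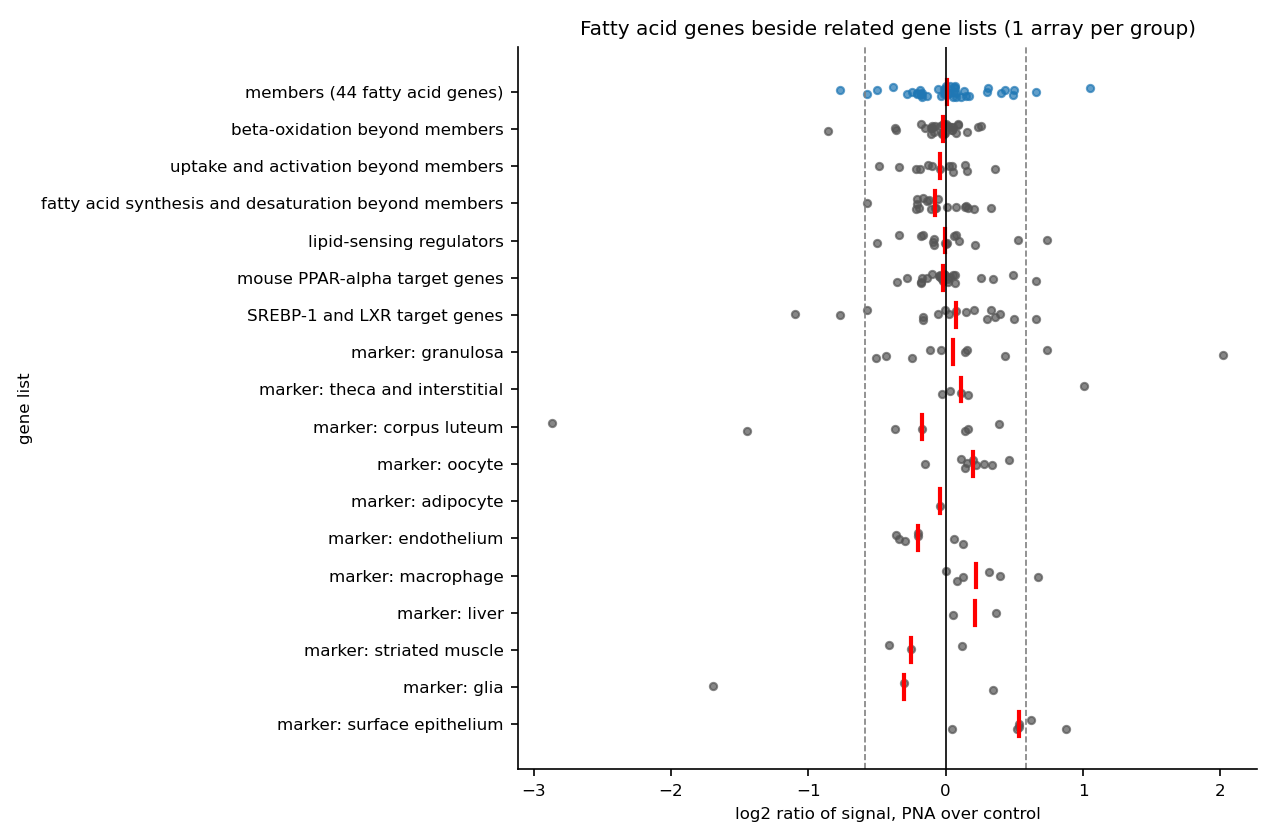
Log2 ratio of signal, PNA over control (x axis), of each measurable gene, by gene list (y axis), with the median as a red bar and 1.5-fold as dashed lines. Most points of the metabolic lists lie between the dashed lines with medians from -0.08 to 0.08, and the 2 points farthest from 0 are *Hsd17b7* (corpora lutea) and *Cyp19a1* (granulosa cells).

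Several cell type markers differed between the arrays as well. *Lhcgr* (1246 to 458, log2 ratio -1.44) and *Hsd17b7* (4113 to 564, log2 ratio -2.87) were lower among 7 markers of corpora lutea, of which 3 had log2 ratios over 0, with a median of -0.17 and a summed signal of 34217 (control) and 34024 (PNA). *Cyp19a1* (388 to 1578, log2 ratio 2.02) and *Amh* (119 to 199, log2 ratio 0.74) were higher among 10 granulosa markers, of which 5 had log2 ratios under 0, with a median of 0.06 and a summed signal of 22453 (control) and 23694 (PNA). *Cyp17a1* (2709 to 5448, log2 ratio 1.01) was higher among 5 theca and interstitial markers, of which 1 had a log2 ratio under 0, with a median of 0.11 and a summed signal of 28629 (control) and 31997 (PNA). Of 6 markers of the ovarian surface epithelium, *Krt19* (145 to 266, log2 ratio 0.87) and *Lrrn4* (36.9 to 56.8, log2 ratio 0.62) were higher and all 6 had log2 ratios over 0, with a median of 0.53 and a summed signal of 727 (control) and 1095 (PNA). None of 9 oocyte markers reached 1.5-fold, with a median of 0.20. The part of these cell types in the differences of *Elovl2*, *Elovl5*, *Elovl7*, *Fads6* and *Fabp3* was not tested.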

How the data were processed

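Total RNA of whole ovaries was hybridized as biotinylated cRNA to a GeneChip, with 1 array for each group. Per the file headers, the authors deposited linear signal intensity and, in a further table, log2 values from which the mean of the 2 arrays was taken off. Both carry the same ratios (largest difference 2e-06). This does not show whether the signals were normalized between the arrays, since taking off a shared mean leaves a ratio unchanged. Exactly the same signal stood on both arrays for 2033 of 45037 probe sets, that of *Acad8* among them, and the reason was not tested. The series table holds the same log2 values within 5e-10. Which program turned probe readings into these signals is not given in the sources at hand. The deposited tables also hold the authors' own fold changes and lists of differential genes, which were not used.

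After 64 control probe sets of 45101 were left out, ratios were computed with Python 3.11.15, pandas 2.3.3 and numpy 2.4.6, and checked on simulated ratios. No test was run, since each group has 1 array, and the number of arrays limits the precision. All 58 members matched the RefSeq gene table (GRCm38.p6) by Entrez ID. Positions are the deposited alignments, which name no build, and 110 of 111 lay within 5000 bases of their gene in that table. The exception was the chosen *Acot2* probe set.

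All members are named, with values for those above the floor, except 1 that is not reported here, though it enters the counts and medians. Of other lists, genes past 1.5-fold (up to 4 per list) and all lipid-sensing regulators are named. The members and lists were chosen with earlier results of these data known. Alternatives were other choices of probe set, an offset of 50, median scaling, quantile normalization, loess (fraction 0.3, statsmodels 0.14.6), other floors, a 2-fold criterion and the series values.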

Additional observations from a re-analysis of the deposited data

How the results depend on the processing

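No paired analysis was possible because each group has 1 array and the labels give no replicate number, and for the same reason no replicate could be left out. Under the 12 alternatives no result changed direction among those past 1.5-fold, and 39 of the 44 members above the floor stayed on the same side of 1.5-fold in every setting that gave them a value, which was 8 settings for 40 genes and 1 fewer for 4 genes that have marked probe sets alone. The count of higher members, 2 as reported, was 1 with the mean of all probe sets (*Elovl2*), with 50 added to both signals (*Fabp3*), with the 60th percentile as the floor (*Fabp3*) and at 2-fold (*Elovl2*). The count of lower members, 1 as reported, was 2 with the mean of all probe sets (*Elovl5* and *Fads6*), 2 without probe sets marked _s, _x or _a and 2 with median scaling (*Elovl5* and *Elovl7* in both), and 3 with the probe set of largest change (these and *Fads6*). It was 0 with 50 added, with a floor on both arrays, with the 60th percentile and at 2-fold. Over all genes, 158 were higher and 161 lower with 50 added, and 89 and 112 at 2-fold, against 352 and 305. With the probe set of largest change, 3.91% of 12522 genes were higher and 3.47% lower, against 2.49% and 2.16% as reported. Lower genes were 1.82% of all with the mean of all probe sets. They were 2.35% without marked probe sets and 2.31% with median scaling. *Elovl2* ranged from 0.57 to 1.05, *Elovl5* from -0.63 to -0.55, *Elovl7* from -0.80 to -0.33 and *Fabp3* from 0.41 to 0.67.

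Family medians moved as follows, and each family's median but that of *Fabp* changed sign under at least 1 choice. The mean of all probe sets gave 0.022 for *Acsm*, -0.11 for *Cpt* and 0.0356 for *Fads*. The probe set of largest change gave -0.28 for *Cpt*, -0.16 for *Elovl*, 0.17 for *Fads* and 0.43 for *Fabp*. Leaving out marked probe sets gave -0.16 for *Elovl* and 0.43 for *Fabp*. Adding 50 gave 0.12 for *Fabp*. A floor on both arrays gave 0.15 for *Elovl* and 0.15 for *Fabp*. No floor gave -0.0689 for *Acox*, -0.17 for *Acsl* and 0.0744 for *Fabp*, and the 60th percentile gave 0.19 for *Acox*. Fewer probe sets or genes enter under several of these choices, and families hold at most 12 genes. Signals near the floor, as of *Elovl2*, *Elovl7* and *Fabp7*, limit what their ratios can show.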
